A study of Mus musculus with 24 samples.

Results

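Of the 55681 probes of the array, 85 (0.153%) were higher in HC11 mammary epithelial cells after knockdown of the major *mPINC* splice forms. They were also higher in cells that overexpressed these forms. In control siRNA cells their deposited values differed by at most 0.5 (log2) with lactogenic hormones, though many were not above background there. *mPINC* is a pregnancy-induced long noncoding RNA of the mammary gland. The members were chosen from these measurements, on the log2 values that the authors had normalized and deposited. The difference siPINC1/6 minus siNegative in cells without hormones and the difference LeGO-1/6 minus LeGO-GFP each had to be at least 0.7, and siNegative with minus without hormones had to lie between −0.5 and 0.5. Each member was also marked by the scanner software as well above background on every siPINC1/6 array without hormones and on every LeGO-1/6 array. Both rises were met by 387 probes, 134 of which also met the hormone band and 310 the brightness condition. The 85 probes carried 70 gene symbols, with 2 probes each for *Relb* and *Odc1*, and 13 probes had no symbol.

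The study asked what *mPINC* does in alveolar differentiation. HC11 cells are an established line of mouse mammary epithelium that turns on milk protein genes under lactogenic hormones. Gene expression was measured on 24 Agilent arrays with 1 colour, Cy3. Values below are log2 processed signals that were quantile normalized over the 24 arrays, unless the deposited values are named.

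The siRNA cells received 10 nM of a negative control siRNA (siNegative) or of siRNAs against *mPINC*. These targeted the major splice forms (siPINC1/6) or all splice forms (siPINC). In the paper each set was a pair of siRNAs. The pairs had a siRNA in common, so the knockdowns are not independent. Cells were profiled without (−LH, n = 2 in each group) or with (+LH, n = 3 in each group) lactogenic hormones. The paper names these as hydrocortisone, insulin and prolactin. By its culture methods, insulin was already in the growth and priming media, and prolactin and hydrocortisone were added for differentiation. The lentivirus cells carried LeGO-GFP, LeGO-1/6 (overexpression of the major splice forms) or LeGO-DCR (a PINC isoform that lacks the most conserved regions). All of them had received the hormones (n = 3 in each group). All 24 samples are cultures of 1 cell line, so the p-values measure the spread between cultures of that line, and so few arrays limit how precisely any value is known. No lentivirus array without hormones was analysed here, so overexpression was compared under hormones and the knockdown that chose the members without them.

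Of the 20167 gene symbols on the array, 70 were those of members. Short gene lists were drawn up for innate immunity. Members were 4 of the 28 measured genes on the list of NF-kB targets and cytokines and 1 of 12 on that of RNA sensing (*Zbp1*). They were 1 of 18 on that of acute phase genes (*Saa3*) and 0 of 23 on that of interferon-stimulated genes. Members such as *Nod2*, *Tnip3*, *Traf1*, *Nos2*, *Plscr1* and *Ube2l6* are on none of these lists. In innate immune signalling, receptors for microbial products, for nucleic acids or for cytokines such as interleukin 1 release the transcription factor NF-kB, which turns on chemokines, acute phase proteins and its own inhibitors. Interferons act through STAT factors and turn on a partly overlapping set of genes. Stefins and serpins are protease inhibitors, of cysteine cathepsins and of serine proteases respectively, and in the mouse both families have expanded into clusters of close copies. Mammary epithelium uses such defence genes during weaning and infection.

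The probe for *mPINC* checked the labels. Without hormones its signal was 7.44 ± 0.0472 (SD, n = 2) with siNegative, 6.33 ± 0.084 with siPINC1/6 and 6.28 ± 0.164 with siPINC. Under hormones it was 13.44 ± 0.0862 (n = 3) in LeGO-1/6 against 6.07 ± 0.263 in LeGO-GFP cells. With hormones it was 4.87 ± 0.134 in siNegative, 5.06 ± 0.211 in siPINC1/6 and 4.37 ± 0.338 in siPINC cells and above background on 2, 2 and 1 of 3 arrays, so it did not show a knockdown in the cells labelled siPINC1/6 +LH. The LeGO-DCR construct lacks terminal exons, and where the probe lies relative to them was not determined, so its signal of 6.06 ± 0.121 there checks nothing. All −LH arrays were on slide 1, the siPINC +LH and siPINC1/6 +LH arrays on slide 2 and the LeGO-1/6 and LeGO-DCR arrays on slide 3, while replicate 1 of siNegative +LH and of LeGO-GFP lay on slide 1. Between 24020 and 30750 probes were well above background on 23 arrays and 35790 on LeGO-1/6 replicate 1, where the members' median difference from LeGO-GFP was 1.87, against 1.83 and 1.85 on the other LeGO-1/6 arrays.

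Of the marker lists, 7 of 8 luminal and 7 of 8 basal genes were above background on all 24 arrays, with *Krt19* and *Myh11* as the exceptions, so the epithelial label held. The summed immune list was not higher where the members were. *Itgam*, *Cd3e* and *Csf1r*, above background on all 24 arrays, set this sum, so a rise of dimmer immune genes could not move it. Whether immune cells were present was not tested by the list. Its summed signal lay between 11.63 and 11.90 in LeGO-1/6 and between 11.89 and 12.43 in LeGO-GFP cells, and between 11.45 and 11.50 in siPINC1/6 −LH against 11.75 and 11.77 in siNegative −LH cells. *Ptprc* (CD45) was above background on 7 of the 24 arrays. *Lyz2*, a myeloid lysozyme, was above background on 2 arrays, both of LeGO-1/6, where it read 3.77, 4.47 and 3.66, against group means of 1.89 to 1.98 in all other groups. Other lists did move in LeGO-1/6 cells. The summed fibroblast signal was 10.01 to 10.11 against 13.67 to 13.92 in LeGO-GFP, the basal signal 14.90 to 14.93 against 16.44 to 16.50, and the adipocyte signal, which rested on *Fabp4*, 13.25 to 13.42 against 9.70 to 9.77, with *Adipoq* above background on 0 arrays. In LeGO-GFP cells *Dcn* and *Col3a1* were the brightest of the fibroblast list and *Krt14* and *Krt5* of the basal list. Not all listed genes fell with the sums. *Pdgfra* (8.08 against 7.12), *Col1a1*, *Col1a2* and the basal *Acta2* (9.34 against 8.42) were higher in LeGO-1/6 cells. With siPINC1/6 and no hormones the fibroblast signal was 9.01 to 9.14 against 10.04 to 10.12 and the adipocyte signal 7.44 to 7.66 against 6.79 to 7.06. There *Col1a2* was higher (7.51 against 6.93). The part of these lists in the members' values was not tested.

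Several members are neighbours in the genome (RefSeq, GRCm38.p6). The stefin genes *Stfa1* (chr16:36277148-36285371), *Stfa2* (chr16:36403946-36408363) and *Stfa3* (chr16:36450537-36455392) lie in 1 run, as do the serpin genes *Serpina3f* (chr12:104214544-104221129), *Serpina3g* (chr12:104236147-104241939) and *Serpina3i* (chr12:104263045-104269509). The promoters of the 3 stefins are shown because the genes are close neighbours that may be read as copies of one another. These are the 250 bases before the start of Stfa1 (chr16:36276898-36277147, plus strand), Stfa2 (chr16:36408364-36408613, minus strand) and Stfa3 (chr16:36455393-36455642, minus strand), from RefSeq, 5′ to 3′, with the letters of a CCAAT box (CCAAT or, as here, its reverse complement) in capitals.
Stfa1: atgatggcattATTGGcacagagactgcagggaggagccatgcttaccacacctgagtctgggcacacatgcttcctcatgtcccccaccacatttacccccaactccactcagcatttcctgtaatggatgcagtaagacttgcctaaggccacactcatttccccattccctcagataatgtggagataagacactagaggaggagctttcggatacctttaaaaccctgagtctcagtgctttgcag
Stfa2: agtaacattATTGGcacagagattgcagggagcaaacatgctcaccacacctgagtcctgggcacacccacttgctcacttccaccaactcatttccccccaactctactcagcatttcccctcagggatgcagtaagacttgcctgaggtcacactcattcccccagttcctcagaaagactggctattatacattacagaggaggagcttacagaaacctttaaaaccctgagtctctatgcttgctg
Stfa3: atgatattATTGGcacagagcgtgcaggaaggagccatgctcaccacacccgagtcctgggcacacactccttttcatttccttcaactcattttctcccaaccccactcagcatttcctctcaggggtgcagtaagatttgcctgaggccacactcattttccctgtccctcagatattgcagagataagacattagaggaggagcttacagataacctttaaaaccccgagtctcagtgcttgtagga
Stfa1 and Stfa2 shared 204 of these 250 bases in a global alignment (81.6%), Stfa1 and Stfa3 211 (84.4%) and Stfa2 and Stfa3 203 (81.2%). The CCAAT letters began 239, 241 and 242 bases before the start.

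For the serpins, the matching windows of Serpina3f (chr12:104214294-104214543, plus strand) and Serpina3g (chr12:104235897-104236146, plus strand) are printed with the GAS letters, TTCNNNGAA, in capitals. GAS is the sequence that STAT factors, prolactin's STAT5 among them, are known to bind.
Serpina3f: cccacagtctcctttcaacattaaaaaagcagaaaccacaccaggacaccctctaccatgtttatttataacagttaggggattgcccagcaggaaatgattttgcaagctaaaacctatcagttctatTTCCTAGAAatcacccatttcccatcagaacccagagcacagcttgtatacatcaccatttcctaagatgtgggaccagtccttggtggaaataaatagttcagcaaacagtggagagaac
Serpina3g: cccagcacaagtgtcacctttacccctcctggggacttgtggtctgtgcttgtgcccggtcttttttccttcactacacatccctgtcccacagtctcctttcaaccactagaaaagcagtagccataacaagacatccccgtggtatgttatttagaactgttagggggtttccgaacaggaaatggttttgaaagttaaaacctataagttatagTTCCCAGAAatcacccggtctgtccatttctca
These 2 windows shared 114 of 250 bases (45.6%). With the window of Serpina3i, which is not printed, Serpina3f shared 180 (72.0%) and Serpina3g 142 (56.8%). Each window is placed by its annotated start, so these shares depend on where the starts were set. In Serpina3f the GAS letters were TTCCTAGAA, beginning 121 bases before the start, and in Serpina3g and Serpina3i they were TTCCCAGAA, beginning 33 and 102 bases before it. Cxcl10, a chemokine gene (window chr5:92348890-92349139, minus strand), is shown because it differed between the 2 knockdowns. Its capitals mark the letters GAAANNGAA of an interferon-stimulated response element, which began 213 bases before the start.
Cxcl10: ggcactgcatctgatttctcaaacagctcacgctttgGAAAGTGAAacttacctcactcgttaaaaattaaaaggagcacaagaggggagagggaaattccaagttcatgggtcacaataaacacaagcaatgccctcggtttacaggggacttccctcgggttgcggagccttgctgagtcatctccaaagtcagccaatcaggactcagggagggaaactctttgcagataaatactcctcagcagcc

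A promoter was found for 49 of the member genes. On either strand of the window from 250 bases before to 50 after the start, the GAS letters were present in 9 of the 49 (18.4%, 95% Wilson interval 9.98 to 31.4) and in 2288 of all 27025 promoters (8.47%). In the 250 bases before the start alone they were present in 7 (14.3%, interval 7.1 to 26.7) and in 1940 of all (7.18%), so there the interval reached the share of all promoters. These are shares of windows, and the intervals cover counting only. Of the 9, 3 are the neighbouring serpins, and the others belonged to *C1ra*, *Gsta1*, *Plscr1*, *Prl6a1*, *Serpinb2* and *Tmem130*. The letters GGGNNTTTC of an NF-kB site were in 5 (10.2%, interval 4.44 to 21.8; 4.46% of all), the GAAANNGAA letters in 3 (6.12%; 8.57% of all), namely *Cxcl10*, *Saa3* and *Serpina3f*, and CCAAT in 23 (46.9%; 37.9% of all). The AP-1 letters TGANTCA were in 6 (12.2%; 7.93% of all) and the GC box GGGCGG in 20 (40.8%; 35.9% of all). GAAANNGAA and GGGNNTTTC can overlap on opposite strands, and such matches describe letters in a window, not a bound site. Other spellings of an NF-kB site were not counted, so promoters outside the 5, that of *Cxcl10* among them, may still hold one.

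The 2 contrasts that chose the members are described first, without a test. On the processed signal, 84 of the 85 were higher by at least 0.7 in siPINC1/6 −LH than in siNegative −LH cells, a difference that 5.35% of all probes and 3.19% of the bright ones had, and all 85 in LeGO-1/6 than in LeGO-GFP cells (13.0% of all probes, 15.4% of the bright ones). Bright probes are those that met the brightness condition (24877 probes, 44.7%). The rule fixed these counts. The members' median difference was 1.42 in the knockdown (range −0.31 to 5.07) and 1.85 in the overexpression (range 0.77 to 8.17). For siNegative cells with minus without hormones the median was −0.27 (range −1.96 to 1.37), and 21 members lay below −0.5 and 4 above 0.5 on this scale. Thus 59 members met all of the rule's thresholds on both kinds of value. Of the 85, 30 were above background on no siNegative −LH array and 27 on no siNegative +LH array. Where a member was above background in neither group, no hormone difference was measured.

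**Figure D1:**
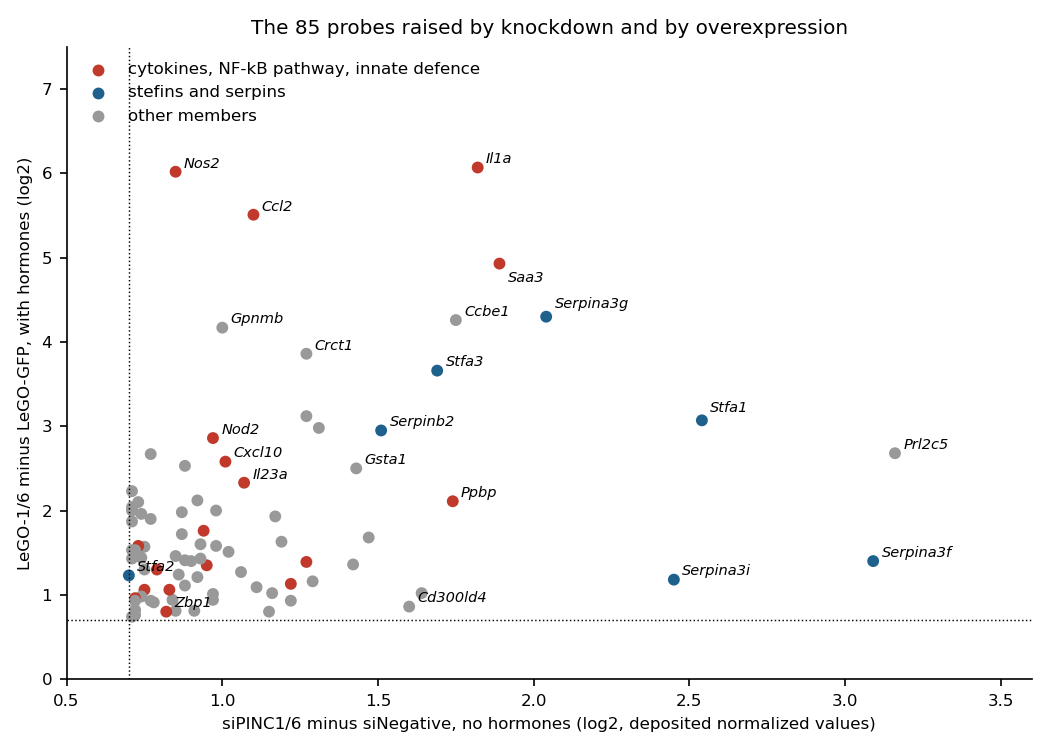
The 85 members by the 2 rises that chose them, on the deposited log2 values: siPINC1/6 minus siNegative without hormones (x) and LeGO-1/6 minus LeGO-GFP with hormones (y), 1 point per probe, with dotted lines at the threshold of 0.7 on each axis. Red points are cytokines, NF-kB pathway and innate defence genes, blue points stefins and serpins, and grey points the other members. *Nos2*, *Il1a* and *Ccl2* stand highest on the overexpression axis, and *Prl2c5*, *Serpina3f* and *Stfa1* furthest right on the knockdown axis, though the plotted rises of *Il1a*, *Ccl2*, *Prl2c5* and *Stfa1* are no exact sizes because a control group was not above background.

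Near the thresholds, on the deposited values, *Stfa2* (0.705), an unnamed probe (0.706) and *Pvr* (0.707) were just inside the knockdown limit, and *Lhfp* and 2 unnamed probes (0.699 each) just outside. On the overexpression side *Gsdma* (0.739), an unnamed probe (0.756) and *1810008I18Rik* (0.804) were the closest inside, and *Abca5* (0.682), an unnamed probe (0.67) and *Arhgap28* (0.656) the closest outside. At the hormone band, *Serpina3g* (0.499), *Plscr1* (0.496) and *Traf1* (0.489) lay inside, and *Pawr* (−0.50), *BC016099* (−0.50) and an unnamed probe lay just below it.

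Some memberships rested on single arrays or on dim signals. The spot of *Azin2* (antizyme inhibitor 2) on siPINC1/6 −LH replicate 2 was marked as an outlier and left out of the processed values. The remaining array read 4.89 against 4.94 and 5.45 in siNegative −LH cells, so its rise on the deposited values came from that spot, and its LeGO-1/6 arrays read 6.29, 6.51 and 8.76. *Cd300ld4*, a receptor of myeloid cells, read 5.25 and 8.45 in siPINC1/6 −LH against 4.27 and 4.53 in siNegative −LH cells, with 1 array far above the other. Among the members, 30 were above background on no siNegative −LH array and 8 on no LeGO-GFP array. For those a fold change is given as a lower bound ("at least"): the bright group's mean was set against the dim group's, in which any array whose signal lay under the dimmest probe well above background there was raised to that probe's level.

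**Figure D2:**
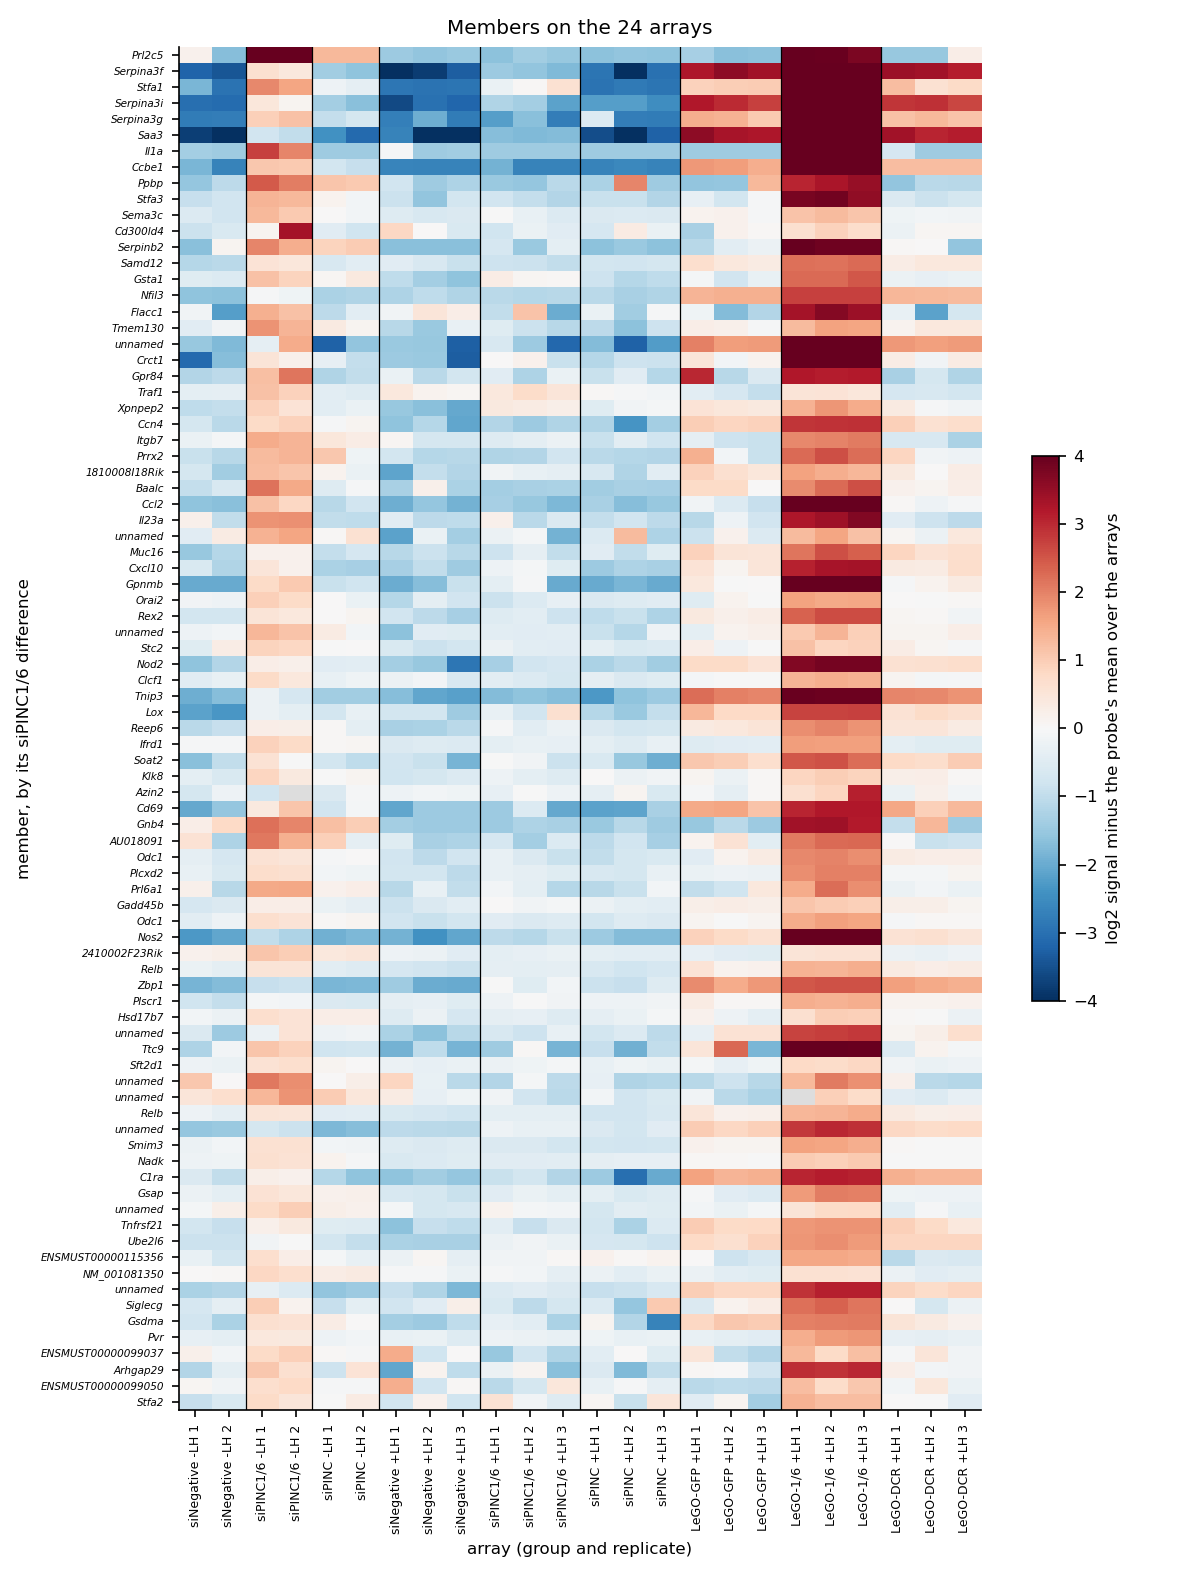
Heat map of the 85 members (rows, ordered by the siPINC1/6 difference on the deposited values) on the 24 arrays (columns, by group and replicate). Colour is the log2 signal minus the probe's mean over the arrays, and values beyond 4 are drawn at 4. The LeGO-1/6 columns are red in every row and the siPINC1/6 −LH columns redder than the siNegative −LH columns beside them, apart from *Azin2*, and grey marks the 2 spots that were left out.

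The 6 cytokine and chemokine genes were higher by a median of 4.01 in LeGO-1/6 and 2.41 in siPINC1/6 −LH cells. This and the following groupings by function were made after the values were seen. Medians over such groups include differences from controls not above background, here *Il1a*, *Ccl2*, *Ppbp* and *Il23a* without hormones. They are therefore no exact sizes. *Il1a*, the gene of interleukin 1 alpha, an alarm cytokine of epithelia, read 6.00 and 5.20 in siPINC1/6 −LH, 1.89 and 1.83 in siNegative −LH and 1.84 and 1.83 in siPINC −LH cells. In LeGO-1/6 cells it read 10.01, 10.02 and 9.96, and 1.83 on each LeGO-GFP array. It was thus at least 2.81-fold higher in siPINC1/6 −LH and at least 61.0-fold higher in LeGO-1/6 than in the matching control, and near the scanner's floor in the other groups. *Ccl2*, a monocyte-attracting chemokine, read 5.22 and 4.87 in siPINC1/6 −LH and 2.45 and 2.38 in siNegative −LH cells, and 10.43, 10.64 and 10.57 in LeGO-1/6 against 3.91, 3.52 and 3.14 in LeGO-GFP cells. These are at least 1.91-fold and at least 89.3-fold.

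*Cxcl10*, a chemokine for T cells that interferon and NF-kB both induce, had a signal above background in all groups. It read 7.07 and 6.77 in siPINC1/6 −LH, 5.98 and 5.40 in siNegative −LH and, with siPINC, 5.34 and 5.27. On LeGO-1/6 arrays it read 9.67, 9.88 and 9.93 and on LeGO-GFP arrays 7.13, 6.72 and 7.07. *Cxcl10* was thus higher with siPINC1/6 and with LeGO-1/6, while its siPINC −LH arrays lay below both siNegative arrays. *Ppbp*, the precursor of the neutrophil chemokine CXCL7, read 6.02 and 5.62 in siPINC1/6 −LH and 4.68 and 4.61 in siPINC −LH against 2.04 and 2.54 in siNegative −LH cells, and 6.61, 6.83 and 7.07 in LeGO-1/6 against 2.00, 2.02 and 4.86 in LeGO-GFP cells. *Il23a*, a subunit of interleukin 23, was at least 1.70-fold higher in siPINC1/6 −LH and at least 5.45-fold higher in LeGO-1/6 cells. *Clcf1*, a cytokine of the interleukin 6 family, was 1.97-fold and 2.71-fold higher.

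Members of the NF-kB pathway and innate receptors had a median rise of 1.40 in siPINC1/6 −LH and 1.53 in LeGO-1/6 cells over 6 genes. *Relb*, an NF-kB subunit of the non-canonical branch, had 2 probes. The brighter read 10.66 and 10.62 in siPINC1/6 −LH against 9.93 and 9.78 in siNegative −LH and 9.68 and 9.73 in siPINC −LH cells, and 11.47, 11.50 and 11.62 in LeGO-1/6 against 10.64, 10.33 and 10.35 in LeGO-GFP cells. The dimmer probe gave 1.78-fold and 2.18-fold, close to the 1.73-fold and 2.13-fold of the brighter. *Traf1*, an adaptor of TNF receptors, read 8.28 and 8.03 in siPINC1/6 −LH and 6.72 and 6.73 in siNegative −LH cells, and was 2.31-fold higher in LeGO-1/6 cells.

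*Nod2*, a cytosolic receptor of bacterial cell wall fragments, was 3.10-fold higher in siPINC1/6 −LH and 8.55-fold higher in LeGO-1/6 cells. *Tnip3*, an inhibitor of NF-kB activation, was 2.60-fold and 3.61-fold higher. *Zbp1*, a sensor of Z-form nucleic acids, read 8.24 and 8.31 in siPINC1/6 −LH and 7.30 and 7.41 in siNegative −LH cells, while the siPINC −LH arrays read 7.34 and 7.35, between the siNegative values. *Gpr84*, a receptor of medium-chain fatty acids on myeloid cells, was at least 1.86-fold higher in siPINC1/6 −LH, and LeGO-GFP replicate 1, on slide 1, read 6.34 against 2.24 and 2.76 on the other LeGO-GFP arrays and 6.49 to 6.55 in LeGO-1/6 cells.

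Among innate effectors, *Saa3*, an acute phase serum amyloid, read 6.88 and 6.66 in siPINC1/6 −LH, 5.21 and 4.53 in siPINC −LH and 3.87 and 2.83 in siNegative −LH cells, at least 6.33-fold higher with siPINC1/6. In LeGO-1/6 cells it read 15.89, 15.92 and 15.87 against 11.22, 10.93 and 10.88 in LeGO-GFP cells (29.6-fold). *Nos2*, the inducible nitric oxide synthase, differed by 2.11-fold between siPINC1/6 −LH (7.27 and 7.02) and siNegative −LH (5.97 and 6.17), and by 69.8-fold between LeGO-1/6 (15.08, 15.20 and 15.16) and LeGO-GFP (9.17, 9.03 and 8.88). *Nos2* was thus among the smaller knockdown differences and the larger overexpression differences. *C1ra*, a complement protease, *Plscr1*, an interferon-inducible scramblase, and *Ube2l6*, the conjugating enzyme for ISG15, were 1.97-fold, 1.72-fold and 1.74-fold higher in siPINC1/6 −LH and 3.08-fold, 2.46-fold and 2.00-fold higher in LeGO-1/6 cells.

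The stefins and serpins were higher by a median of 3.34 in siPINC1/6 −LH and 3.50 in LeGO-1/6 cells over 7 genes. The siNegative −LH arrays of *Stfa1*, *Stfa2*, *Serpina3g* and *Serpinb2* were not above background, so the knockdown median is no exact size. *Stfa1* read 6.77 and 6.41 in siPINC1/6 −LH, 4.63 and 4.47 in siPINC −LH and 3.01 and 1.89 in siNegative −LH cells, at least 5.58-fold with siPINC1/6 and at least 1.36-fold with siPINC. It read 9.26, 9.39 and 9.25 in LeGO-1/6 and 5.75, 5.81 and 5.85 in LeGO-GFP cells (11.3-fold). *Stfa3* was 4.53-fold and 17.3-fold higher, and *Stfa2* at least 2.41-fold and 3.59-fold higher. Signal shared between probes of such close copies was not tested.

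*Serpina3f* read 8.88 and 8.67 in siPINC1/6 −LH, 6.86 and 6.64 in siPINC −LH and 5.05 and 4.83 in siNegative −LH cells (14.3-fold with siPINC1/6). Its level in LeGO-GFP cells was already 11.48, 11.83 and 11.60, and LeGO-1/6 cells, at 13.05, 12.98 and 13.03, were 2.62-fold higher. *Serpina3i* followed the same order, 10.1-fold in the knockdown and 2.29-fold in the overexpression. *Serpina3g*, whose control arrays read 1.88 and 1.90, was at least 3.05-fold higher in siPINC1/6 −LH and 25.1-fold higher in LeGO-1/6 cells. *Serpinb2*, plasminogen activator inhibitor 2, was at least 2.21-fold and at least 10.6-fold higher. In all 7 genes siPINC −LH lay above siNegative −LH, by 0.87 to 2.10, though *Serpina3g* was well above background in neither of these groups.

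*Prl2c5*, a placental member of the prolactin family, read 8.21 and 7.60 in siPINC1/6 −LH, 4.92 and 4.90 in siPINC −LH and 3.77 and 1.90 in siNegative −LH cells, at least 13.9-fold with siPINC1/6. It read 7.60, 7.55 and 7.38 in LeGO-1/6 cells (at least 10.9-fold) and was above background on no other +LH array. Its close relatives on the array were not examined for shared signal. *Prl6a1*, of the same family, was at least 1.34-fold and at least 1.75-fold higher.

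*Gsta1*, a glutathione transferase that detoxifies electrophiles, read 7.85 and 7.59 in siPINC1/6 −LH, 6.78 and 7.09 in siPINC −LH and 6.19 and 6.13 in siNegative −LH cells, and was 6.59-fold higher in LeGO-1/6 than in LeGO-GFP cells. *Odc1*, ornithine decarboxylase, the first enzyme of polyamine synthesis, was 2.07-fold and 3.76-fold higher by one probe and 1.89-fold and 2.81-fold by the other. *Gpnmb*, a lysosomal glycoprotein, was at least 1.60-fold and 36.0-fold higher. *Gnb4*, a G protein beta subunit, was at least 2.53-fold and at least 6.22-fold higher, and *Samd12* 3.07-fold and 3.34-fold.

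Matrix and secreted factors were higher by medians of 1.84 in siPINC1/6 −LH and 1.73 in LeGO-1/6 cells over 5 genes. *Ccbe1*, a secreted factor needed for lymphatic vessel growth, read 5.61 and 5.58 in siPINC1/6 −LH and 2.72 and 1.89 in siNegative −LH cells (at least 2.80-fold) and was 23.8-fold higher in LeGO-1/6 cells. *Lox*, the lysyl oxidase that crosslinks collagen, was at least 2.43-fold higher in siPINC1/6 −LH and at least 2.12-fold higher in siPINC −LH cells. *Ccn4*, *Sema3c* and *Stc2* completed the group. Among genes of squamous and barrier epithelia, *Crct1* (a cornified envelope protein) was at least 2.75-fold and 23-fold higher and *Muc16* (a membrane mucin) 2.83-fold and 3.32-fold. The stress and early response genes *Gadd45b*, *Nfil3* and *Ifrd1* were 1.85-fold, 2.85-fold and 1.85-fold higher in siPINC1/6 −LH cells.

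Of the 13 probes without a symbol, 9 were named by the array's design by mm9 coordinates. Of these, 3 probes read the same stretch, chr13:98267049-98267604, and are not independent, and 3 lay between chr1:175653557-175717250. The latter were 3.98-fold to 9.65-fold higher in LeGO-1/6 than in LeGO-GFP cells. No annotation on mm9 was used here, so what lies there is not stated.

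**Figure D3:**
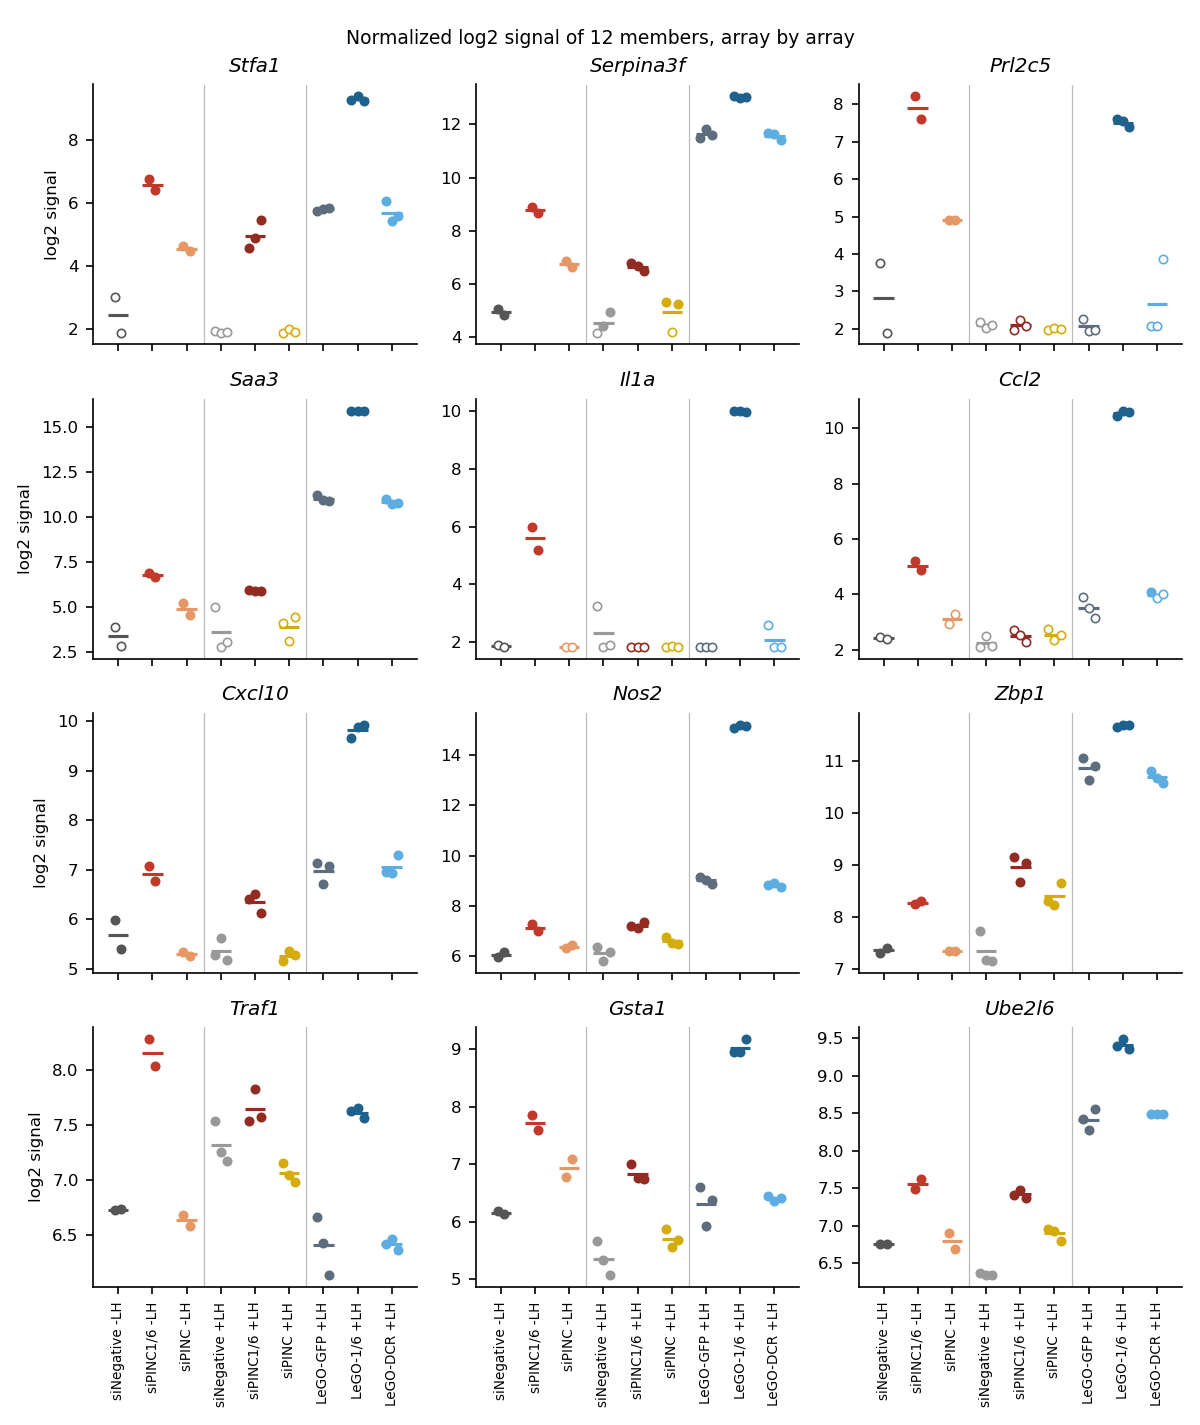
Normalized log2 signal of 12 members on every array, by group (x), with a bar at the group mean; filled points are well above background and open points are not. Grey lines part −LH siRNA, +LH siRNA and lentivirus cells. In each panel both siPINC1/6 −LH points lie above both siNegative −LH points and the LeGO-1/6 points above the LeGO-GFP points. The members were chosen by these differences, so this is a description.

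Groups outside the rule showed how far these differences extended. The siPINC −LH arrays share the siNegative −LH controls with the rule, so their differences are a description. The members' median difference was 0.43 (range −0.76 to 2.35) against 0.00 for all probes, 69 of 85 lay above 0, and 24 were higher by at least 0.7, where 4.13% of all probes and 1.09% of the bright probes were. *Serpina3f*, above background on all 4 of these arrays, was 3.49-fold higher. *Lox*, *Prl2c5*, *Ppbp* and *Stfa1* were at least 2.12-fold, 1.74-fold, 1.45-fold and 1.36-fold above controls that were not well above background. The cytokine group was divided, with a median of 0.05 and 3 of 6 genes above 0, and the NF-kB and receptor group had a median of 0.00, while the 7 stefins and serpins had a median of 1.74. Each siPINC −LH array was above the siNegative −LH mean, by a median of 0.37 and 0.42, and each siPINC1/6 −LH array by 1.49 and 1.36.

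With hormones, the differences were smaller. The arrays labelled siPINC1/6 +LH were above siNegative +LH by a median of 0.31 over the members (range −1.39 to 3.05), and 21 of 85 were higher by at least 0.7 (6.21% of all probes, 3.55% of the bright ones). These comparisons share the siNegative +LH controls with the rule. *Serpina3f* read 6.81, 6.68 and 6.49 against 4.18, 4.44 and 4.95 (4.39-fold). *Stfa1* read 4.57, 4.88 and 5.46 against 1.95, 1.89 and 1.92, which were not above background (at least 1.5-fold). *Saa3* read 5.94, 5.87 and 5.90 against 4.97, 2.77 and 3.04 (at least 2.87-fold) and *Zbp1* 9.15, 8.67 and 9.04 against 7.73, 7.16 and 7.15. In these 4 genes the groups did not overlap, while *Stfa2* and *Stfa3* differed by 0.43 and 0.10. The 4 were picked from the members, and the share of all probes without overlap was not counted. *Il1a*, *Ccl2* and *Prl2c5* were above background on no siPINC1/6 +LH array. From −LH to +LH the siPINC1/6 arrays themselves were lower by at least 0.7 in 67 of 85 members (14.3% of all probes), with a median of −1.23, a comparison that shares the siPINC1/6 −LH arrays with the rule. For siPINC +LH minus siNegative +LH the median was 0.07, with 6 members higher by at least 0.7 (4.16% of all probes, 1.39% of the bright ones).

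LeGO-DCR cells were close to LeGO-GFP cells, with which the rule was made. The median difference was −0.01 (range −1.51 to 1.08), and 2 of 85 members were higher by at least 0.7 (2.81% of all probes, 0.338% of the bright ones). The per-array medians against the LeGO-GFP mean were 0.02, −0.04 and −0.06, against 1.83 to 1.87 in LeGO-1/6 cells. *Nos2* read 8.84, 8.91 and 8.74 and *Serpina3f* 11.66, 11.62 and 11.40 in LeGO-DCR cells, within or just below the range of the LeGO-GFP arrays. The lentivirus controls themselves stood above the siRNA controls, by a median of 0.63 to 0.81 over the siNegative −LH mean. LeGO-GFP replicate 1, on slide 1 like the siNegative −LH arrays, stood 0.79 above that mean. The lentivirus controls had received hormones and the siNegative −LH cells had not. Against the LeGO-GFP mean, the siNegative +LH arrays had medians of −0.93 to −0.99. The cause of these differences was not tested, and vector and culture cannot be told apart.

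**Figure D4:**
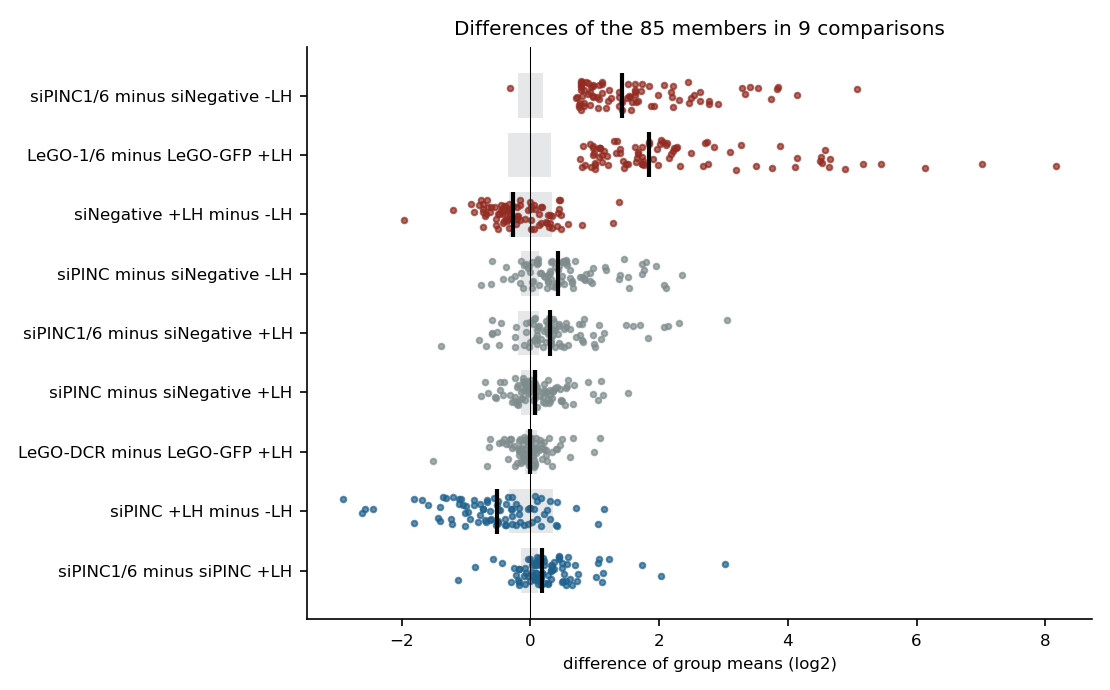
Differences of group means (log2, x) for the 85 members in 9 comparisons (rows), 1 point per member, with a black bar at the members' median and a grey box over the quartiles of all probes. Dark red rows chose the members, grey rows share control arrays with the rule, and blue rows were tested. The medians are 1.42 and 1.85 in the first rows and −0.51 and 0.18 in the blue rows.

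A pair of comparisons set against each other only arrays that had not chosen the members, though the first took its spread from all 15 siRNA arrays and the second from all 9 with hormones. The first compared siPINC cells with and without hormones. The siPINC −LH cells share a siRNA with the siPINC1/6 −LH cells that chose the members. They also lay above siNegative −LH by a median of 0.43 over the members. A fall from that level is therefore not independent of the rule. The members' median of siPINC +LH minus −LH was −0.51 (range −2.91 to 1.15), against 0.01 for all probes and −0.04 for the bright probes. For siNegative +LH minus −LH the members' median on this scale was −0.27. limma called 36 of the 85 (42.4%) at an adjusted p under 0.05 (Benjamini-Hochberg over all probes), where 28.0% of all probes and 53% of the bright probes were called. Of these, 31 were called lower (36.5%; 14.6% of all probes and 28.0% of the bright ones) and 5 higher (5.88%; 13.5% and 25%). Of the 31, 23 were above background in both groups, 5 in 1 group and 3 (*Ccbe1*, *Ccl2* and *Cd69*) in neither, so for those 3 no fall was measured. The siPINC −LH arrays lay on slide 1 and the siPINC +LH arrays on slide 2, so a slide effect can be estimated only through the siNegative arrays. With a slide term 21 members were called, 14 lower and 7 higher.

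*Serpina3f*, above background on both siPINC −LH arrays and on 2 of 3 siPINC +LH arrays, went from 6.86 and 6.64 to 5.32, 4.22 and 5.27 (−1.81 ± 0.317, SE; limma adjusted p = 0.00118). *Gsta1*, *Stfa3* and both *Odc1* probes fell by 1.23, 1.01, 0.74 and 0.68 on the log2 scale. For other called members the +LH arrays were not above background, so that only a bound is known. *Prl2c5* went from 4.92 and 4.90 to 1.98, 2.03 and 1.99, at least 1.42-fold lower (fitted change −2.91 ± 0.406, limma adjusted p = 0.000243). *Stfa1* went from 4.63 and 4.47 to 1.89, 2.02 and 1.90, at least 1.11-fold lower (−2.61 ± 0.308, limma adjusted p = 6.75e-05). *Serpinb2* and *Gnb4* were each at least 1.07-fold lower (limma adjusted p = 0.00116 and 1.01e-06). The brighter *Relb* probe had −0.28 ± 0.0692 (limma adjusted p = 0.0104). With the slide term *Gsta1*, *Stfa3*, *Serpinb2* and *Relb* no longer passed (limma adjusted p = 0.0538, 0.252, 0.0511 and 0.445). *Ccl2*, in neither group above background, had a limma adjusted p of 0.0462 and passed in 2 of 13 alternatives (0.134 with the slide term).

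The members that rose with hormones in siPINC cells were *Zbp1*, *Traf1*, *Plscr1* and 2 unnamed probes of the chr1 stretch. *Zbp1* went from 7.34 and 7.35 to 8.30, 8.23 and 8.65 (1.05 ± 0.198, limma adjusted p = 0.00195). *Plscr1* and *Traf1* rose by 0.40 ± 0.0773 and 0.42 ± 0.125 (limma adjusted p = 0.00224 and 0.0269), and the call of *Traf1* was lost in 6 of 14 alternatives. *Zbp1* and *Plscr1* are interferon-inducible. The list of interferon-stimulated genes holds none of the members. In the same comparison 19 of its 23 genes rose and 2 fell, with a median of 2.51 (13.5% of all probes rose and 14.6% fell). In siNegative cells 16 of the 23 rose with hormones and 3 fell, with a median of 1.11 (13.5% and 13.6% of all probes). Any link to the rise of *Zbp1* and *Plscr1* was not tested.

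The second comparison set the knockdowns against each other in hormone-treated cells, all on slide 2. The arrays labelled siPINC1/6 +LH were above siPINC +LH by a median of 0.18 over the members (range −1.12 to 3.03), with 66 of 85 above 0. The median of all probes was −0.01, with quartiles of −0.15 and 0.12, and their share above 0 was not counted. The siPINC1/6 siRNAs also chose the members in cells without hormones. A positive difference is therefore not independent of the rule. limma called 4 members (4.71%; 0.914% of all probes and 1.66% of the bright ones). All 4 were higher (0.442% of all probes and 0.929% of the bright ones) and 0 lower (0.472% and 0.728%). At an unadjusted limma p under 0.05 there were 21 members (9.84% of all probes), 20 of them higher (4.66% of all probes). *Stfa1* was at least 1.49-fold higher (4.57, 4.88 and 5.46 against 1.89, 2.02 and 1.90; fitted difference 3.03 ± 0.203, limma adjusted p = 0.00546). *Gsta1*, with 7.0, 6.76 and 6.74 against 5.87, 5.56 and 5.68, differed by 1.13 ± 0.163 (limma adjusted p = 0.034). *Cxcl10*, with 6.41, 6.51 and 6.12 against 5.16, 5.36 and 5.29, differed by 1.07 ± 0.146 (limma adjusted p = 0.0279), and *Ube2l6*, with 7.41, 7.48 and 7.37 against 6.96, 6.93 and 6.80, by 0.52 ± 0.0566 (limma adjusted p = 0.0134). In each of the 4 genes the groups did not overlap, but the genes were picked by the call, so this adds nothing to it. *Stfa2* and *Stfa3*, the neighbours of *Stfa1*, differed by 0.08 and 0.02 (limma adjusted p = 0.988 and 0.998). When 1 array was left out in turn, 1 to 3 members were called: *Stfa1* passed in all 6 such fits, *Ube2l6* in 4, *Cxcl10* in 1 and *Gsta1* in 0. With the methods' t-test after adjustment 0 members passed. Over all 14 alternatives the call held for *Stfa1* in 10, *Ube2l6* in 8, *Cxcl10* in 5 and *Gsta1* in 3.

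*Saa3*, *Serpina3f* and *Zbp1* were higher in the same direction without passing. *Saa3* read 5.94, 5.87 and 5.90 against 4.10, 3.09 and 4.41, which were not above background (at least 2.66-fold, limma adjusted p = 0.277). *Serpina3f* differed by 1.73 ± 0.329 (limma adjusted p = 0.0851) and *Zbp1* by 0.56 ± 0.209 (limma adjusted p = 0.435).

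**Figure D5:**
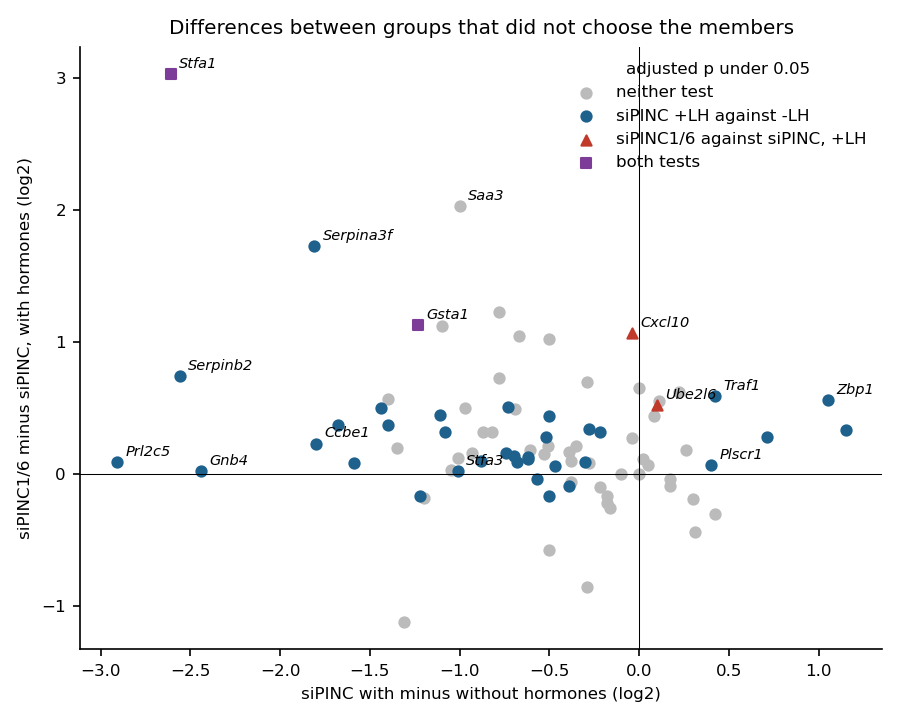
Each member's difference in the 2 comparisons whose arrays did not choose the members: siPINC with minus without hormones (x) and siPINC1/6 minus siPINC with hormones (y), both log2. Colour and shape give the limma calls at an adjusted p under 0.05. *Stfa1* and *Gsta1* passed in both, *Cxcl10* and *Ube2l6* only in the second, and most called points lie left of 0.

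The rest of each pathway was counted from gene lists, with 1 probe per gene and limma calls at an adjusted p under 0.05. The list of NF-kB targets and cytokines had 28 measured genes, 4 of them members (*Relb*, *Ccl2*, *Cxcl10* and *Il1a*). Of the other 24, 9 were higher and 0 lower in siPINC1/6 −LH than in siNegative −LH cells (1.52% of all probes were called higher and 1.45% lower), with a median difference of 0.71. In LeGO-1/6 cells 19 were higher and 1 lower (14.5% of all probes higher, 15.8% lower), with a median of 1.61. The contrasts here and in the next paragraph are those the rule used, so the counts are a description. With hormones 11 of the 24 were lower and 3 higher in siNegative cells (13.6% and 13.5% of all probes), with a median of −0.27. There were 8 that were higher in both siPINC1/6 −LH and LeGO-1/6 cells. The share of all probes called higher in both was not counted. On the deposited values 0.695% of all probes had both rises of at least 0.7. *Cxcl1* and *Cxcl5*, chemokines for neutrophils, are among the 8, with differences of 2.02 and 2.83 in siPINC1/6 −LH cells, 4.64 and 4.07 in LeGO-1/6 cells and −1.57 and −3.26 with hormones in siNegative cells. *Il6* differed by 1.34 and 3.55 and was at least 21.2-fold lower with hormones, and *Csf3*, the granulocyte growth factor, was at least 9.77-fold and at least 65.0-fold higher and was above background in neither siNegative group. These 4 were named after their values were seen. With hormones *Cxcl1*, *Cxcl5* and *Il6* lie outside the hormone band that the members had to meet.

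Acute phase genes other than *Saa3* gave 5 of 17 higher and 0 lower in siPINC1/6 −LH, and 9 higher and 6 lower in LeGO-1/6 cells. *S100a8* and *S100a9*, the calprotectin genes, were higher in both, *S100a8* by 2.20 and *S100a9* at least 8.50-fold in siPINC1/6 −LH cells, and by 6.54 and 6.40 in LeGO-1/6 cells. Of the interferon-stimulated genes, limma called 0 of 23 higher and 4 lower (3 and 12 at an unadjusted p under 0.05, median −0.42) in siPINC1/6 −LH and 15 higher and 3 lower (median 0.80) in LeGO-1/6 cells. Proliferation genes gave 0 of 19 in either direction in siPINC1/6 −LH (limma, 9 higher and 0 lower at an unadjusted p under 0.05) and 16 higher in LeGO-1/6 cells. The lists were also drawn up with earlier results known. For siPINC1/6 −LH the calls over all lists numbered 56, against 12 with the 75th percentile and 13 with the deposited values.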

How the data were processed

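RNA of 24 HC11 cultures was measured on Agilent 1-colour arrays. The authors deposited scanner intensity files (Agilent Feature Extraction 11.0.1.1) and a table of log2 values, which they had quantile normalized. No per-sample column was left unused. From the processed signal intensity, outlier-flagged spots were left out, log2 values were quantile normalized over the 24 arrays and spots were averaged per probe (59305 spots, 55681 probes). The rule was applied to the deposited log2 values. Symbols came from RefSeq accessions (26582 probes) or the study's tables (34), and 29065 probes had none. Tests used limma 3.58.1 in R 4.3.3 with Benjamini-Hochberg adjustment over all probes, on 15 siRNA arrays (hormones) or 9 (knockdowns with hormones). Other steps used Python 3.11.15, pandas 2.3.3, numpy 2.4.6, scipy 1.17.1 and matplotlib 3.10.9. On simulated data limma recovered 51% (hormones) and 50% (knockdowns) of probes changed by a log2 of 1. Named genes were the 12 with the largest smaller rise, list genes among the members and up to 5 called genes per direction, and the others were chosen after their values were seen. The members, lists and groupings were chosen with earlier results of these data known. Alternatives covered scaling, background correction, dim probes, slide, test, thresholds and leaving out arrays.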

Additional observations from a re-analysis of the deposited data

How the results depend on the processing

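The number of probes that met the rule moved with its thresholds: 205 with a rise of 0.5, 31 with a rise of 1, 47 with a hormone band of 0.25, 173 with a band of 1, 134 with no filter on dim probes and 38 when all 24 arrays had to be well above background. Scaling changed which probes met it: 124 with quantile-normalized processed signal (59 of the 85 among them), 116 with the 75th percentile (57) and 58 with normexp (32). Leaving out 1 array gave 84 to 117. For hormones in siPINC cells, 36 called members became 23 with the methods' t-test and 21 with a slide term, and 25 to 37 when 1 array was left out. For siPINC1/6 against siPINC with hormones, 4 called members became 2 with the 75th percentile, 9 when only bright probes were tested, 0 with the methods' t-test, 0 when only the 2 groups were fitted, and 1 to 3 when 1 array was left out. At the methods' threshold (unadjusted p under 0.01 and a fold over 1.8) the t-test passed 12 members in the first comparison and 5 in the second. The replicate numbers did not pair the samples (correlations of same-numbered deviations from −0.171 to 0.204), and with the replicate number as a block 36 and 0 members were called. The members' median for siPINC −LH, 0.43, was 0.25 on the deposited values, 0.16 with normexp and 0.34 to 0.42 when 1 array was left out, and for siPINC1/6 +LH, 0.31, it was 0.11 with normexp and 0.26 to 0.38 when 1 array was left out. Over all gene lists, 39 calls for siPINC1/6 against siPINC became 17 with the 75th percentile and 14 on the deposited values, and 56 for siPINC1/6 −LH became 12 and 13. No result changed direction under these alternatives, and the cause of the differences was not tested. Many members are dim in the control cells, where the signal over background limits every fold change.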
